A study of Homo sapiens with 4 samples.

Results

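Desmosomes join epithelial cells to each other and hemidesmosomes anchor them to the basement membrane, and 9 genes of these junctions and of keratinocytes were examined here, out of 19821 protein-coding genes. They were DSP, JUP, PKP1 and PERP of the desmosome, ITGA6, ITGB4 and COL17A1 of the hemidesmosome, and TRIM29 and SERPINB5, which are characteristic of stratified epithelium. The genes were chosen by name with earlier results of these data known, from the positions and numbers of SMARCB1 peaks and from their overlap with H3K27ac. Their peaks are therefore given as a description, without tests. For each gene, peaks in the gene record or within 10 kb of it were collected (hg38), which gave 25 of the 4453 SMARCB1 peaks of the series.

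The libraries came from SK-Hep1, an established human line labelled as hepatic adenocarcinoma. H3K27ac, the acetylation of histone H3 that marks promoters and enhancers in use, was profiled in cells with an shRNA against SMARCB1 (shSMARCB1) and in cells with a control shRNA (shCon). SMARCB1, which belongs to the core of SWI/SNF remodellers of chromatin, was profiled by ChIP-seq in a further library, whose labels do not say which shRNA the cells carried. Each group had 1 library, so no value has a replicate check. The shSMARCB1 library held 10203310 tags and the shCon library 13235203, and both peak lists were called against the same control input. In chromatin from many cells, a mark in a few cells and a weak mark in all cells cannot be told apart. At the gene ends (within 1 kb), H3K27ac was found at 4 of 12 hepatocyte markers in shSMARCB1 and 3 of 12 in shCon. CPS1, SERPINA1 and TF had it in both and FOXA2 in shSMARCB1 only, and ALB, APOA1 and HNF4A were among those without it in both. Of 10 mesenchymal markers 8 had it in shSMARCB1 and 9 in shCon, and of 10 endothelial markers 1 had it in each. Of 8 simple epithelial markers 3 had it in shSMARCB1 (KRT8, KRT18 and KRT19) and 5 in shCon (also CLDN3 and EPCAM). Of 10 stratified epithelial markers, which include TRIM29 and COL17A1, 2 had it in shSMARCB1 (DSC3 and KRT5) and 1 in shCon (DSC3). For scale, H3K27ac of both libraries lay on the start itself, a narrower measure, at 9354 of 15812 protein-coding promoters. No cell identity is read from these marker counts.

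In a desmosome, cadherins span the gap between cells, the armadillo proteins plakoglobin and plakophilin bind their tails, and desmoplakin ties the plaque to keratin filaments. In a hemidesmosome, the integrin pair made of the alpha6 and beta4 chains and the transmembrane collagen XVII link keratin filaments to laminin. These genes are known for high expression in the basal and suprabasal layers of skin. RNA was not measured in the libraries described here.

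All 9 genes had a SMARCB1 peak in the record or within 10 kb, against 23.3% of all protein-coding genes. There were 2 or more peaks at 8 of the 9, against 4.73% of all genes, and SERPINB5 had 1. The density was 4.54 SMARCB1 peaks per 100 kb of examined window at the 9 genes and 0.347 over all protein-coding genes. The 9 genes had a median length of 36360 bp, against 24482 bp for all protein-coding genes. Of the 25 peaks, 18 (72%) shared no base with H3K27ac of either library, against 28.3% of all SMARCB1 peaks. Each of the 9 genes had at least 1 such peak, as did 6.06% of all protein-coding genes. The members were picked for this property, and nothing is read from these differences.

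**Figure D1:**
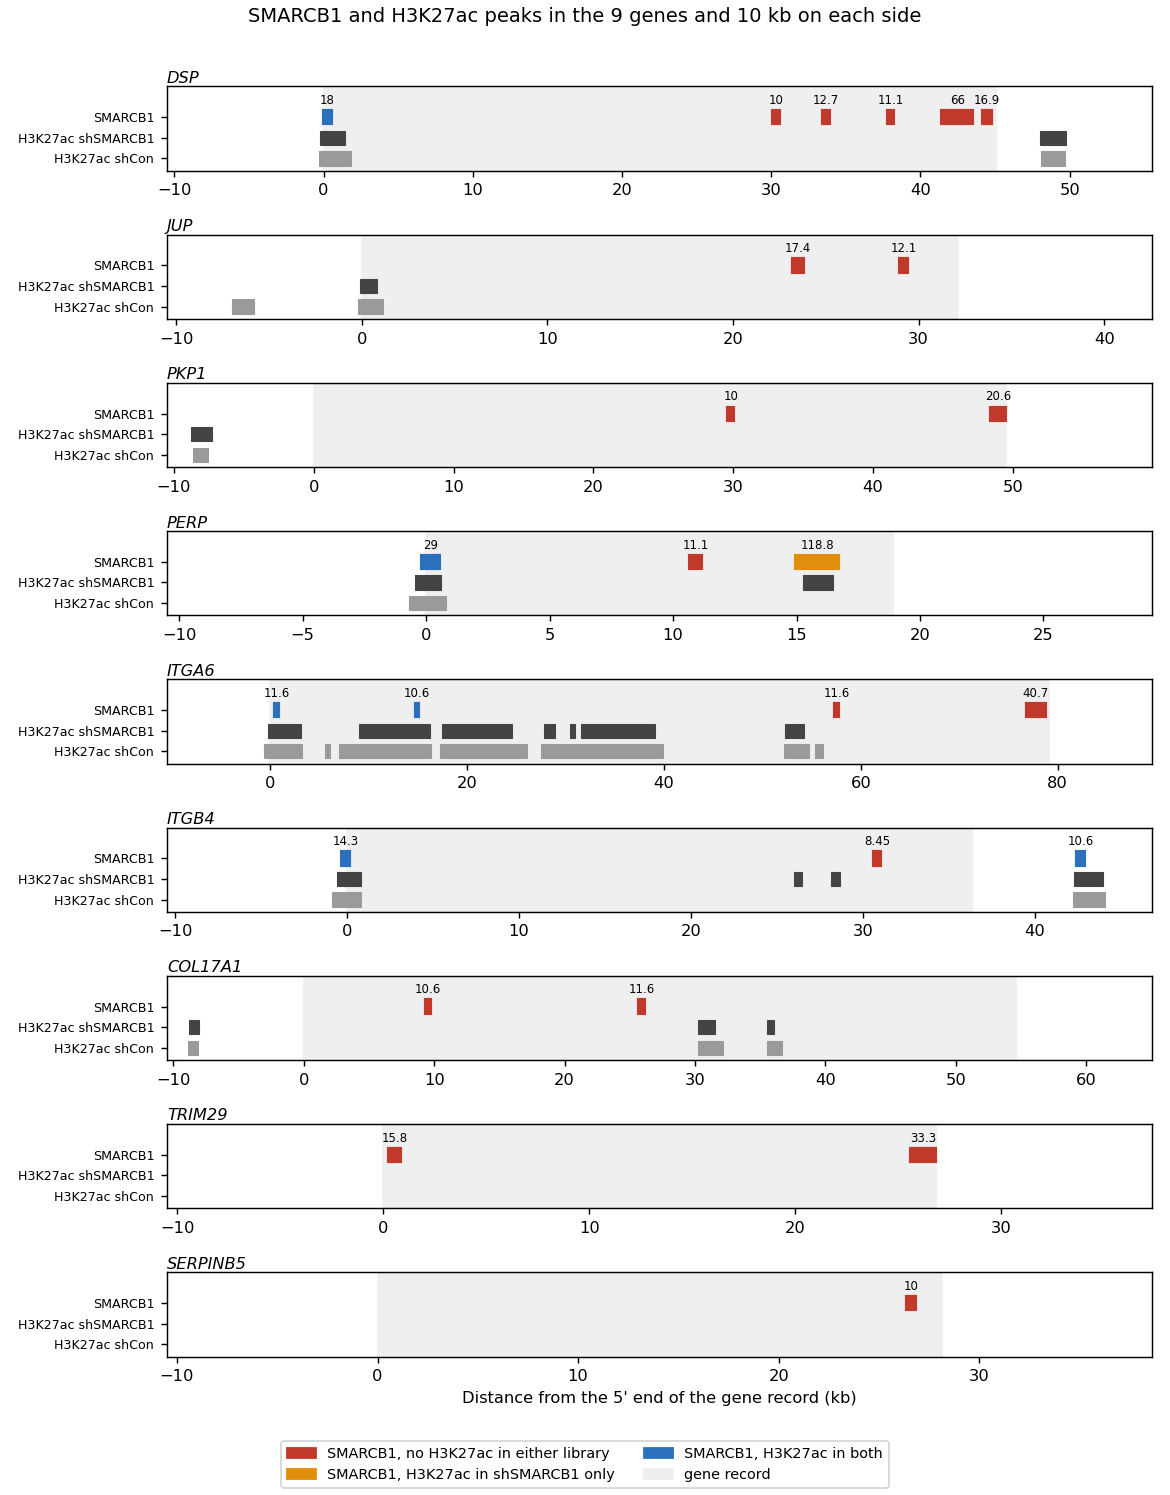
Peaks along the 9 genes, as distance in kb from the 5' end of the gene record (grey band), with SMARCB1 peaks on top, H3K27ac of shSMARCB1 below and H3K27ac of shCon at the bottom. The number over each SMARCB1 peak is the authors' own, with no unit given, and the 18 red peaks had no H3K27ac in either library.

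The start regions of the genes differed in whether they carried either mark, and the sequences of 5 are shown because they span that range. Each is the 250 bases before the RefSeq start (GRCh38.p14), 5′ to 3′. Capitals mark TGANTCA, a loose AP-1 motif with any base at N, and the GC box GGGCGG, searched on both strands with overlapping matches joined. RefSeq promoters were matched for 7 of the 9 genes.

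DSP (chr6:7541421-7541670, plus strand): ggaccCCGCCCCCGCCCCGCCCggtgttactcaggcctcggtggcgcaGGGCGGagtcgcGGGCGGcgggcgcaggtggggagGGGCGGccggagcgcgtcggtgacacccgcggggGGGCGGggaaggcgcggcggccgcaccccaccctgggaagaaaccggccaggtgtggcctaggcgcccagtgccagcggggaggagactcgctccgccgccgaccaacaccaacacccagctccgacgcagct

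PERP (chr6:138107420-138107669, minus strand): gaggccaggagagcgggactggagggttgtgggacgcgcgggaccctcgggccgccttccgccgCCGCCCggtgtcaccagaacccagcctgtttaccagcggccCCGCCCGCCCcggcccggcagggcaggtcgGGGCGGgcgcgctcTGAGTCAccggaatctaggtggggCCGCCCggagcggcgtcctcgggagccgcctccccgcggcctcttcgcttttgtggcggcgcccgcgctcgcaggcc

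PKP1 (chr1:201283256-201283505, plus strand): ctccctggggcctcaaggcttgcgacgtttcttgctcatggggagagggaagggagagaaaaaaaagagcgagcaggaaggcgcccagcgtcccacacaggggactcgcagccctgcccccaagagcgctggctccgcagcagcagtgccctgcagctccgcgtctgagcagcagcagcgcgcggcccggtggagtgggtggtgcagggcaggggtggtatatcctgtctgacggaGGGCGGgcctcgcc

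COL17A1 (chr10:104085881-104086130, minus strand): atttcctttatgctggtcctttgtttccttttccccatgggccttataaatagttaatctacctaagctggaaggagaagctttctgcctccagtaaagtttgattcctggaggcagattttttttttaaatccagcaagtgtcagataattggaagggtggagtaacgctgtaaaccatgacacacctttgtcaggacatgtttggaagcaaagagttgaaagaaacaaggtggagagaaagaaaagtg

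SERPINB5 (chr18:63476708-63476957, plus strand): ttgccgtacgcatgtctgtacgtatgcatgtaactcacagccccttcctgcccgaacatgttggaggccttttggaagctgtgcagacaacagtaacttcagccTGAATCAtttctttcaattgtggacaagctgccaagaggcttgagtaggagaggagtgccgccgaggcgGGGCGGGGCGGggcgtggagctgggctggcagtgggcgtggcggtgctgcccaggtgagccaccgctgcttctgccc

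DSP and PERP had the upstream sequences richest in CpG, with 33 and 34 CpG dinucleotides, 7 and 5 GC-box matches, and H3K27ac and a SMARCB1 peak over them. H3K27ac of shSMARCB1 covered 219 of the 250 bases at DSP and 250 at PERP, and H3K27ac of shCon covered 250 at each. The SMARCB1 peak reached 40 and 227 of these bases. No peak of any list touched the upstream bases of PKP1, with 17 CpG and 1 GC box, COL17A1, with 1 CpG and no GC box, or SERPINB5, with 13 CpG and 2 GC boxes. JUP and ITGA6, not printed, had 17 and 8 CpG and H3K27ac in both libraries, over 109 and 188 bases in shSMARCB1 and 190 and 250 bases in shCon, without SMARCB1. Over 15812 protein-coding promoters of the same length the median was 17 CpG, with 22 where H3K27ac of both libraries lay on the start and 5 where neither did. A match to the loose motif TGANTCA was found at PERP (TGAGTCA) and SERPINB5 (TGAATCA) and in 5.05% of all promoters, and a GC box in 56% of them. The motif GGAATG of TEAD factors, present in 10.1% of all promoters, was not found in the 7 windows.

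DSP encodes desmoplakin, the linker between the plaque and keratin filaments, and had 6 SMARCB1 peaks, 5 of them away from H3K27ac. The first lay on the gene start (chr6:7541631-7542260) and also overlapped the record of the lncRNA DSP-AS1. It had an authors' number of 18 and the class exon, and was fully covered by H3K27ac of both libraries. The others began about 30 kb into the gene and ran to its end. Their numbers were 10, 12.7 and 11.1 for 3 exon peaks of 500 bp, 66 for an exon peak of 2189 bp at chr6:7583035-7585223, and 16.9 for a peak in the 3' UTR. The peak of 66 ranked 51 in the whole list and lay 4463 bp from the nearest H3K27ac of shSMARCB1 and 4528 bp from that of shCon. The nearest acetylated region there overlapped the neighbouring gene SNRNP48. In all, 6 protein-coding genes, DSP among them, had as many SMARCB1 peaks away from H3K27ac as DSP or more, and the highest count was 9.

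JUP encodes plakoglobin, which binds desmosomal cadherins, and had 2 SMARCB1 peaks, both in exons, both away from H3K27ac and both in the 3' part of the gene. Their numbers were 17.4 at chr17:41762906-41763532 and 12.1 at chr17:41757270-41757769, with midpoints at 73.2% and 90.9% of the gene. The start of JUP was acetylated in both libraries and had no SMARCB1 peak. PKP1 encodes plakophilin 1, a plaque protein of stratified epithelia. It had an exon peak with a number of 10 at 60.3% of the gene and a 3' UTR peak of 1143 bp with a number of 20.6 (chr1:201331857-201332999). No H3K27ac lay within the PKP1 record in either library, and the nearest was 7298 bp upstream in shSMARCB1 and 7545 bp upstream in shCon.

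PERP encodes a tetraspan membrane protein of desmosomes that is also a target of p53 and p63. Its 3' UTR held the SMARCB1 peak with the highest number of the 25, 118.8, at rank 24 of the whole list (chr6:138090685-138092473, 1789 bp). H3K27ac of shSMARCB1 was found inside that peak, as a region of 1180 bp at chr6:138090961-138092140, all of it within SMARCB1. In shCon no H3K27ac lay there, and the nearest was 14143 bp from the SMARCB1 peak. SMARCB1 peaks with H3K27ac of shSMARCB1 only made up 1 of the 25, against 1.15% of all SMARCB1 peaks. Of the 51 in the series, 12 were of rank 100 or better, as were 101 of all 4453 SMARCB1 peaks. PERP held the 7th-highest number of the 51. The start of PERP had a SMARCB1 peak with a number of 29 covered by H3K27ac of both libraries, and an intron peak of 11.1 in between had none.

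ITGA6 encodes the alpha6 integrin chain, which pairs with beta4 in hemidesmosomes and also with beta1 elsewhere, and it carried far more H3K27ac than any other of the 9 genes. It had 4 SMARCB1 peaks. The peaks at the start and in the first part of the gene, with numbers of 11.6 and 10.6, lay within H3K27ac of both libraries. An exon peak of 11.6 lay 3053 bp from H3K27ac of shSMARCB1 and 1113 bp from that of shCon, the shortest distance to shCon among the 18. The 3' UTR peak of 1969 bp (chr2:172504131-172506099), with a number of 40.7, lay 22574 bp from H3K27ac of shSMARCB1 and 20634 bp from that of shCon. Both of these peaks away from H3K27ac also lie in the record of the lncRNA PDK1-AS1.

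ITGB4 encodes the beta4 integrin chain and had the only promoter-TSS peak of the 25, with a number of 14.3 and H3K27ac of both libraries over it (chr17:75721117-75721616). Its exon peak had the lowest number of the 25, 8.45 (chr17:75752046-75752545). It lay 1910 bp from H3K27ac of shSMARCB1, there a peak of only 501 bp, against 11122 bp from that of shCon. The exon peak lies in the overlap of ITGB4 with the GALK1 record. A further SMARCB1 peak, 6072 bp past the end of ITGB4, lay in GALK1 alone under H3K27ac of both libraries. This further peak was the one nearest to the 10 kb limit, and the next SMARCB1 peak beyond it, of 13.2, was 14862 bp from JUP. COL17A1 encodes collagen XVII and had an intron peak of 11.6 and an exon peak of 10.6, at 47.5% and 17.4% of the gene. Both lay away from H3K27ac.

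TRIM29, a tripartite-motif protein of basal epithelial cells, and SERPINB5, the serpin maspin, had SMARCB1 peaks without any H3K27ac within 10 kb in either library. TRIM29 had a 3' UTR peak of 1247 bp with a number of 33.3 (chr11:120111285-120112531, rank 170) and an exon peak of 15.8 just inside its start. The exon peak also overlapped the record of the lncRNA LOC105369529. The nearest H3K27ac was 72436 bp from the gene in shSMARCB1 and 30625 bp in shCon. SERPINB5 had 1 exon peak of 10 at chr18:63503315-63503814, with H3K27ac 53563 bp from the gene in shSMARCB1 and 53654 bp in shCon.

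**Figure D2:**
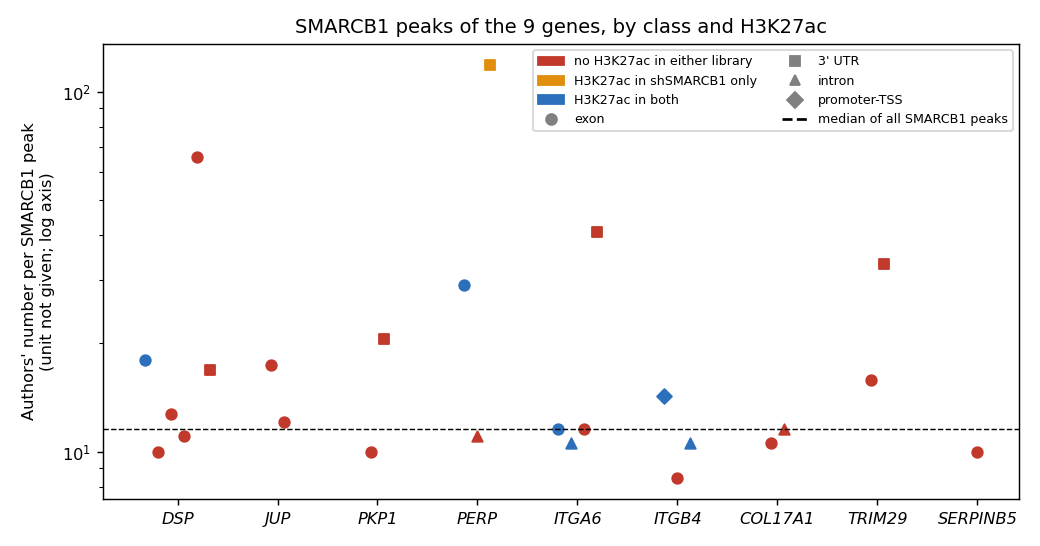
The authors' number (log axis, unit not given) of each SMARCB1 peak of the 9 genes, ordered 5' to 3' within a gene, with colour for H3K27ac and symbol for class. The highest were 118.8 at PERP and 66 at DSP, and the dashed line is the median of all SMARCB1 peaks, 11.6.

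The 25 peaks had a median number of 12.1, against 11.6 for all SMARCB1 peaks, and their ranks ran from 24 to 4285. Of the 25, 2 ranked 100 or better, as did 101 of all 4453 SMARCB1 peaks. The width was 500 bp for 15 of the 25 (60%), against 66.8% of all SMARCB1 peaks. The 18 without H3K27ac had a median number of 11.8, against 10 for the 1259 such peaks of the series. Their distance to H3K27ac of shSMARCB1 had a median of 17378 bp and ranged from 1910 to 98018 bp. To H3K27ac of shCon the median was 17016 bp and the range 1113 to 80011 bp. Over all such peaks the medians were 12664 bp to shSMARCB1 and 12053 bp to shCon.

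Exons and 3' UTRs held 20 of the 25 peaks (80%), against 14.1% of all SMARCB1 peaks, by the authors' classes. Exon peaks made up 60% at the 9 genes and 10.3% of the whole list, and 3' UTR peaks 20% and 3.84%. Peaks of the promoter-TSS class were 4% at the 9 genes, against 29.2% of the list. The SMARCB1 peaks that covered the starts of DSP and PERP were classed as exon. In these 2 classes, 16 of 20 peaks at the 9 genes were away from H3K27ac, against 307 of 630 over the whole list (48.7%, 95% Wilson interval 44.8 to 52.6%, counting error only). The 9 genes were chosen with these positions and overlaps known, and DSP alone held 6 of the 20 peaks. Nothing is read from the differences, and the interval is no test of the 9 genes. Among all 3' UTR peaks the share away from H3K27ac was 73.7% (66.6 to 79.7%), and among all promoter-TSS peaks it was 2.69% (1.94 to 3.72%).

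**Figure D3:**
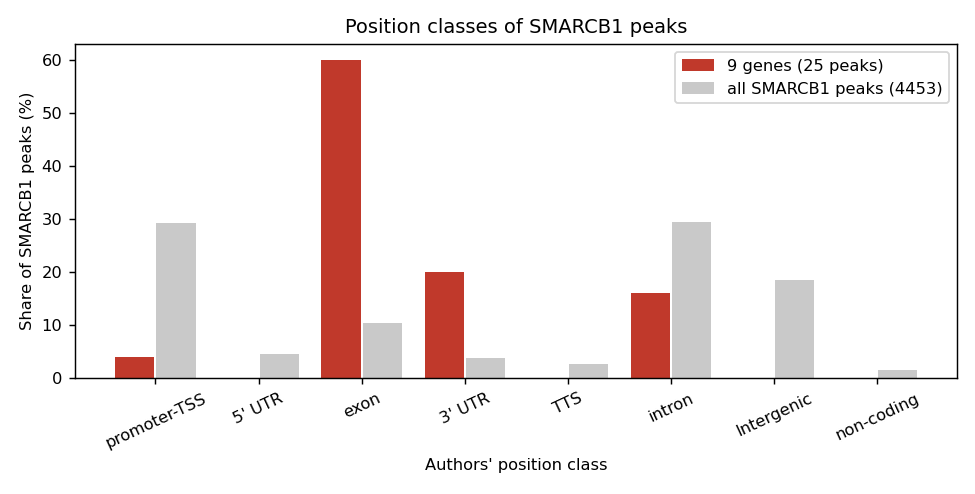
Share (%) of SMARCB1 peaks in each of the authors' position classes, for the 25 peaks of the 9 genes (red) and for all 4453 peaks (grey). Exon peaks were 60% at the 9 genes and 10.3% of all peaks.

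Along the gene, the 18 peaks without H3K27ac lay mostly past the middle of the record, and such peaks in other genes did too. Their midpoints lay in the last 25% for 50% of them, and in other genes for 47.9% of 710 pairs of a gene and a peak, with a further 33.3% at the 9 genes and 22.5% at other genes in the 25% before it. The median position was 79.5% of the gene at the 9 genes and 71.9% at other genes. SMARCB1 peaks with H3K27ac in other genes had a median position of 4.18%, and 69.2% of 1841 pairs lay in the first 25%. At the 9 genes, 5 peaks with their midpoint inside the gene had H3K27ac, 4 of them in the first 25%, and the exception was the 3' UTR peak of PERP. The exon peaks of TRIM29 and COL17A1, at 2.02% and 17.4% of the gene, were the 2 without H3K27ac in the first 25%. The direction of TRIM29 and ITGB4 was read from the authors' classes of these peaks, so their positions are not independent of the classes.

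**Figure D4:**
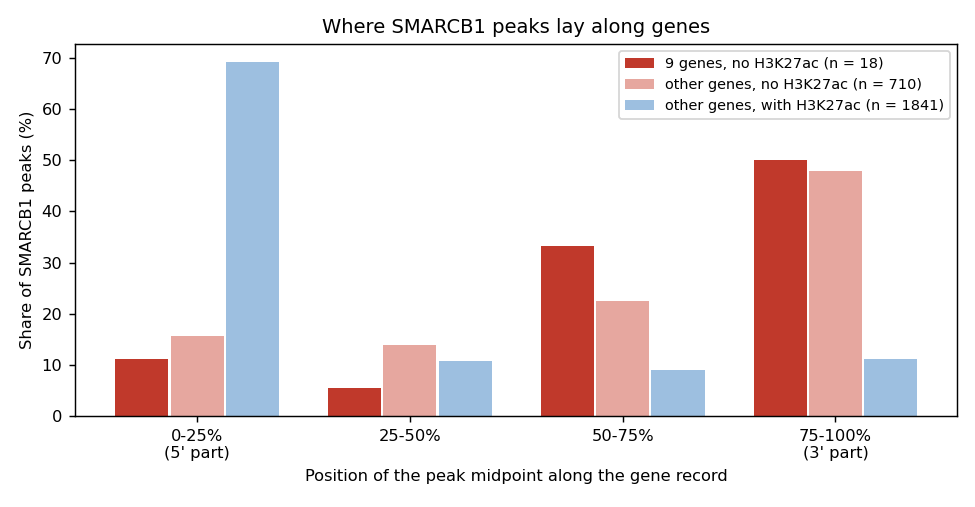
Share (%) of SMARCB1 peaks by the position of their midpoint along the gene record, for peaks without H3K27ac at the 9 genes (n = 18) and at other genes (n = 710), and for peaks with H3K27ac at other genes (n = 1841). The last 25% of the gene held 50% of the peaks without H3K27ac at the 9 genes and 47.9% at other genes, against 11.1% of those with H3K27ac at other genes.

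H3K27ac itself was found within 10 kb in both libraries at 7 of the 9 genes, against 74.5% of all protein-coding genes. None of the 9 had it in shSMARCB1 only (1.2% of all genes) or in shCon only (2.05%), and TRIM29 and SERPINB5 had it in neither. Of all 19821 protein-coding genes, 15412 had it in at least 1 library. Covered length was lower in shSMARCB1 at 4 of the 7 (DSP, JUP, ITGA6 and COL17A1), against 76% of the 15412 genes with H3K27ac. The median difference, shSMARCB1 minus shCon, was −389 bp at the 7 and −383 bp over those genes. Summed over the 9 genes, 43425 bp were covered in shSMARCB1 and 54311 bp in shCon, a ratio of 0.8, and without ITGA6 the ratio was 0.903. Over the genome it was 0.892, from 70.9 Mb in shSMARCB1 and 79.5 Mb in shCon. The shSMARCB1 library was the shallower one, and the part of depth in these lengths was not tested.

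The largest difference was at ITGA6, with 28831 bp in shSMARCB1 and 38145 bp in shCon. Each library had 7 peaks there. The widest shCon region, 12388 bp at chr2:172454865-172467252, stood opposite 3 shSMARCB1 peaks of 1145, 501 and 7583 bp. Narrow shCon peaks of 501 and 817 bp had no counterpart in shSMARCB1.

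JUP had 922 bp in shSMARCB1 and 2552 bp in shCon. Its start was covered by a peak of 922 bp in shSMARCB1 and 1358 bp in shCon, and a shCon peak of 1194 bp, about 6 kb upstream, was without a counterpart. The JUP difference was −355 bp within the gene record and −4353 bp with a window of 50 kb. It was 0 bp when only the wider 50% of peaks were kept, because no H3K27ac was then left at JUP in either library. At COL17A1 the covered length was 2625 bp in shSMARCB1 and 3798 bp in shCon. Both of its intragenic peaks were narrower in shSMARCB1 (501 and 1334 bp) than in shCon (1091 and 1948 bp), and neither library had H3K27ac on its start.

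DSP had 3335 bp in shSMARCB1 and 3724 bp in shCon, with a peak on its start of 1630 bp in shSMARCB1 and 2097 bp in shCon. The rest lay at SNRNP48, and the sign of the DSP difference turned, to 1238 bp, when the wider 50% of each list was used.

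Covered length was higher in shSMARCB1 at PERP, ITGB4 and PKP1. PERP had 2232 bp in shSMARCB1 and 1483 bp in shCon, and the added length came from its 3' UTR, since the peak on its start was 1052 bp in shSMARCB1 and 1483 bp in shCon. ITGB4 had 4038 bp in shSMARCB1 and 3529 bp in shCon, with 2 peaks of 501 bp inside the gene in shSMARCB1 alone (chr17:75747430-75747930 and chr17:75749636-75750136). Both were about as narrow as the peak size of 500 bp given in the file header. Its difference was 1006 bp within the gene record, 4296 bp with a window of 50 kb and −212 bp when narrower peaks were left out. PKP1 had 1442 bp in shSMARCB1 and 1080 bp in shCon, all upstream of the gene. When narrower peaks were left out in this way, PERP and PKP1 had no H3K27ac in either library, and their differences were 0 bp.

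**Figure D5:**
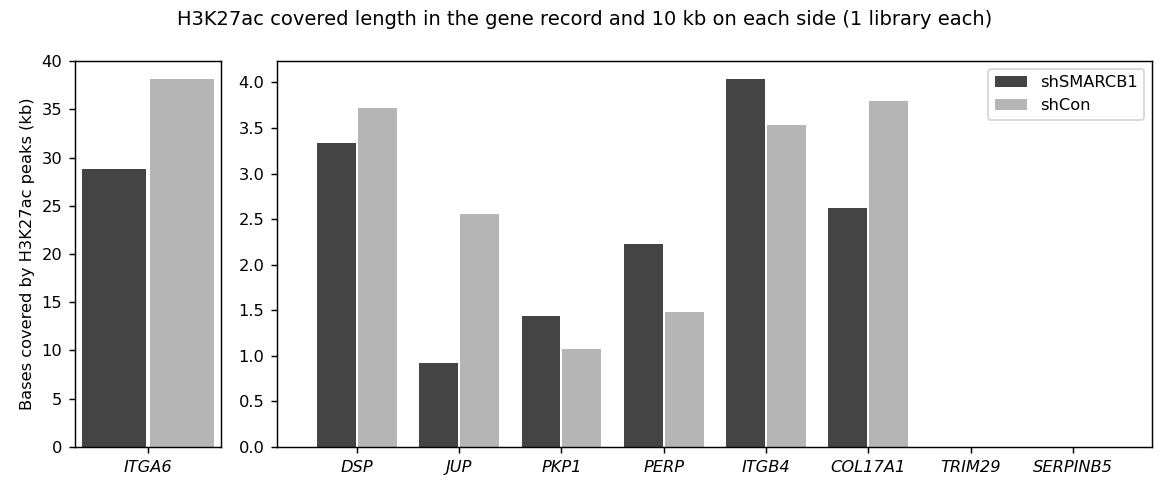
Bases (kb) covered by H3K27ac peaks in each gene record and 10 kb on each side, in shSMARCB1 (dark) and shCon (light), 1 library each. ITGA6, on its own axis, had 28831 bp in shSMARCB1 and 38145 bp in shCon, and TRIM29 and SERPINB5 had none in either.

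Over all protein-coding genes, 23.3% had a SMARCB1 peak within 10 kb and 6.06% had one away from H3K27ac, and the counts of related genes are set beside these shares. The lists of related genes were also chosen with earlier results of these data known, so nothing is read from differences to these shares. Of the 10 further desmosome genes, 2 had a SMARCB1 peak within 10 kb, DSG2, a desmosomal cadherin, with a number of 12.1 and PKP2, a plakophilin, with 20.1. None of the 10 had a SMARCB1 peak away from H3K27ac. Both counts are near the shares over all genes. Of the 6 further hemidesmosome genes 4 had a peak, and 3 had one away from H3K27ac. Among these were DST, which encodes a plakin linker (3 peaks away, the highest 43.8), and PLEC, plectin (2 away, the highest 22.2).

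Among 23 further keratinocyte regulators and markers, 14 had a SMARCB1 peak and 6 had one away from H3K27ac. S100A14 and S100A16, both among the 14, shared the same peak. Among the 6 were SDC1, the proteoglycan syndecan 1, with a number of 91.9, CDH3, P-cadherin, with 13.7, EGFR, the EGF receptor, with 10.6, OVOL1, a zinc-finger repressor, with 10.6, and CSTA, cystatin A, with 10. TP63, the master regulator of stratified epithelium, had no SMARCB1 peak within 10 kb. Of 23 cornified envelope genes of the differentiated layers, 1 had a SMARCB1 peak, EVPL with a number of 8.98, and it lay within H3K27ac. IVL, LORICRIN and FLG had none.

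The genes most like the 9 were taken as those with the most bases of the gene record under SMARCB1 peaks away from H3K27ac. DSP had rank 5 among all protein-coding genes, with 4336 bp, and 802 genes had any such bases. The 10 highest outside the 9 were AHNAK with 11596 bp, MYH9 with 6134 bp, PKM with 4928 bp, C3 with 4791 bp, DST with 4303 bp, CCND2 with 3914 bp, KRT14 with 3865 bp, BSG with 3593 bp, SLC7A5 with 3449 bp and SDC1 with 3381 bp. They encode proteins as unlike as a giant scaffold, non-muscle myosin heavy chain, pyruvate kinase, a complement protein, a cyclin and a basal keratin. C3, CCND2 and KRT14 had no H3K27ac within 10 kb in either library, as was found for TRIM29 and SERPINB5. Many genes lacked it, since 15412 of all 19821 protein-coding genes had H3K27ac within 10 kb in at least 1 library, and nothing is read from these counts. ITGA6 followed with 2469 bp, TRIM29 with 1889 bp, PKP1 with 1633 bp, JUP with 1127 bp and COL17A1 with 1000 bp. ITGB4, PERP and SERPINB5 had 500 bp each.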

How the data were processed

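SMARCB1 and H3K27ac ChIP-seq peak lists from SK-Hep1 cells were used, 1 library per group, grouped by the submitters' titles. An input library is labelled and was not analysed here. The deposited values are peak positions in hg38. Per the submitters' processing notes, Bowtie2 and HOMER were used, and per the file headers both H3K27ac lists came from HOMER in histone style, with stitched regions and a required 4-fold signal over input. The deposited SMARCB1 list gives a number and a class per peak, both the authors' own. The unit of that number, the caller settings and the depth of the list were not stated in the sources used.

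Autosomes and X were kept, positions were made 1-based, and overlap meant at least 1 base (checked with bedtools 2.31.1). A peak away from H3K27ac shared no base with either list. Gene records and promoters came from RefSeq (GRCh38.p14). The strand of ITGB4 and TRIM29 was read from the authors' peak classes. No test was made. The overlap code was tested on simulated data. Members and lists were chosen with earlier results of these data known. All 9 genes were named, with listed genes that had a SMARCB1 peak away from H3K27ac and the 10 genes most like them, and the genes set beside these were chosen after their values were seen. Of the listed genes that met this rule, 2 are not reported here. Alternatives covered the gene window, overlap, wider peaks, merging and a higher SMARCB1 number. Python 3.11.15, pandas 2.3.3, NumPy 2.4.6, SciPy 1.17.1 and matplotlib 3.10.9 were used.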

Additional observations from a re-analysis of the deposited data

How the results depend on the processing

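No paired analysis was possible because each group had 1 library. Each gene kept a SMARCB1 peak with no window and with windows of 2.5 and 50 kb, and the peaks away from H3K27ac numbered 18, 18 and 19. Genes with H3K27ac in both libraries numbered 6, 6 and 7 with these windows. Requiring 50% of a SMARCB1 peak to be covered, or counting H3K27ac within 1 kb as shared, also gave 18. With only SMARCB1 peaks at or above the median number of 11.6, 16 peaks, 11 of them away from H3K27ac, remained at 8 genes. With the wider 50% of each H3K27ac list (from 1601 bp in shSMARCB1 and 1707 bp in shCon), 21 SMARCB1 peaks were away from H3K27ac. In that setting 3 genes had H3K27ac in both libraries and 1 in shCon only. The differences at DSP and ITGB4 turned to 1238 and −212 bp, and the selection drops peaks just under the limit in 1 list. A window of 50 kb also gave 1 gene in shCon only, TRIM29. The summed ratio of covered length, shSMARCB1 over shCon, was 0.792 with a window of 2.5 kb, 0.898 with 50 kb, 0.753 with wider peaks and 0.774 after merging peaks at most 1 kb apart. Among alternatives chosen after seeing the data, 19 peaks were away from H3K27ac of shCon alone, and 23 peaks lay in no other protein-coding gene.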

Other observations

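Among the wider keratinocyte list, S100A2 and FGFR3 each had a SMARCB1 peak with H3K27ac of shSMARCB1 only. Such peaks were 1.15% of all SMARCB1 peaks, a share of peaks and not of genes. The number of the peak with H3K27ac of shSMARCB1 only was 52.8 at S100A2, a calcium-binding protein of basal keratinocytes. It was 12.1 at FGFR3, a fibroblast growth factor receptor. S100A2 had a further SMARCB1 peak, of 73.4, that overlapped H3K27ac of both libraries. In that list, covered length was lower in shSMARCB1 at 15 of the 21 genes with H3K27ac and higher at 6. Over all protein-coding genes with H3K27ac it was lower at 76%, so the list was near that share. Within 10 kb, FGFR3 had 626 bp of H3K27ac in shSMARCB1 and 0 bp in shCon, and S100A2 had 7416 bp in shSMARCB1 and 6989 bp in shCon. H3K27ac within 10 kb in shSMARCB1 only was found at 2 of the 25 listed genes, FGFR3 among them, and at 1.2% of all protein-coding genes. DST, the longest of the hemidesmosome genes, had 73773 bp in shSMARCB1 and 96185 bp in shCon. EVPL, which encodes envoplakin, had 11745 bp in shSMARCB1 and 8709 bp in shCon. TP63 had 3923 bp in shSMARCB1 and 4965 bp in shCon. These are single libraries, and the differences have no replicate check.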
